A study of Mus musculus with 20 samples.

Results

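The miR-106a-363 cluster is a set of microRNA (miRNA) genes on the mouse X chromosome and a paralogue of the miR-17-92 cluster. Its members here were the 8 mature arms mmu-miR-106a-5p, mmu-miR-106a-3p, mmu-miR-18b-5p, mmu-miR-18b-3p, mmu-miR-20b-5p, mmu-miR-20b-3p, mmu-miR-363-3p and mmu-miR-363-5p (mmu, mouse, is left out below), out of 1063 miRNAs counted in both lines. They were chosen by name and not by their values, although earlier results of these data were known. The study followed miRNAs by small RNA sequencing while mouse embryonic stem cells were turned into epiblast stem cells, whose primed pluripotency is close to that of the epiblast after implantation. It did so in a female line, PGK, and a male line, E14. Each sex was represented by a single line, so line and sex cannot be told apart.

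In both lines day 0 was the naive state, kept in 2i medium by inhibitors of the kinases Mek and Gsk3. All later cells grew on fibronectin in N2B27 medium with Activin A and Fgf2. Samples were taken at days 4 and 10, at days 21 and 23 (PGK) or 19 and 21 (E14), and at day 29 (PGK) or days 27 and 30 (E14). Each line was differentiated in 2 experiments, named replicates 2 and 3 after the labels, which gave 20 libraries in 10 groups of 2. In both lines the replicate 3 sample of day 0 has a cell-type label meant for later cells, but its day and title say day 0, and it was used as such. The p-values rest on the spread between differentiation experiments of the same line, and comparisons with day 0 within a line share its 2 day 0 libraries.

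A miRNA hairpin gives a 5p and a 3p arm, of which one is usually loaded into Argonaute as the guide while the other, the passenger, is mostly degraded. A guide finds its target messages through the seed near its 5′ end, so arms with the same seed are expected to share targets. The cluster carries the seeds of the miR-17 family, known for repressing cell-cycle inhibitors such as Cdkn1a, of the miR-18 family, and of the miR-25/92 family. The locus is also a recurrent retroviral integration site in mouse leukaemias, where its primary transcript was named Kis2.

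The mature arms are shown with the seed, bases 2 to 8 from the 5′ end, in capitals, because the seeds define the families in which the cluster's share was measured and the remaining letters set the arms apart from their relatives. All are from RefSeq (GRCm38.p6). miR-363-5p was the other arm measured.
miR-106a-5p: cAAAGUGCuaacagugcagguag
miR-20b-5p: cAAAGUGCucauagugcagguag
miR-18b-5p: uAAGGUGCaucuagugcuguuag
miR-363-3p: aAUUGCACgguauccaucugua
miR-106a-3p: aCUGCAGUgccagcacuucuuac
miR-20b-3p: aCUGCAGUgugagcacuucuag
miR-18b-3p: uACUGCCCuaaaugccccuucu

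The arms of other clusters with which the 4 guide arms were paired, from the same table, are these.
miR-17-5p: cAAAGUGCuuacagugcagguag
miR-20a-5p: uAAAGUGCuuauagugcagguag
miR-18a-5p: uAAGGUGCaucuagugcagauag
miR-25-3p: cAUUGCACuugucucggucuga

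Counted from the 5′ end with the cluster's base first, miR-106a-5p differs from miR-17-5p by A10U alone, miR-18b-5p from miR-18a-5p by U18A and U20A, and miR-20b-5p from miR-20a-5p by C1U and C10U. Within the cluster, miR-106a-5p differs from miR-20b-5p by A10C and C12U. miR-363-3p shares the seed of miR-25-3p but differs at 13 of 22 bases. From miR-92a-3p, which comes from both loci, it differs at 11. How reads that match such near-identical arms were assigned is not given in the sources used here, so the values of miR-106a-5p, miR-18b-5p and miR-20b-5p are uncertain to that extent, while miR-363-3p is well set apart.

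On GRCm38 the 6 hairpins of the cluster lie within 875 bases of the minus strand of the X chromosome, at X:52741693-52742567. In the direction of transcription they are Mir106a (52742503 to 52742567), Mir18b (52742331 to 52742413), Mir20b (52742113 to 52742192), Mir19b-2, Mir92-2 and Mir363 (52741693 to 52741767). GENCODE annotates each as a single-exon miRNA gene, and exons of Kis2, a processed transcript on the same strand, overlap the Mir106a end by 5 bases. The mature arms of miR-19b-3p and miR-92a-3p are identical to those of miR-17-92 on chromosome 14, so their counts cannot be split between the loci, and they are not members. The nearest other miRNA group used here is the miR-322 cluster, 305.4 kb away.

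Total miRNA counts per library lay between 7112398 and 18031067, and 3 counts, the limit that a count of 0 allows, corresponded to 0.166 to 0.422 CPM (counts scaled to a common library total), for counting error only. All 8 arms passed the filter on low counts, which kept 813 miRNAs, and were counted in every library, with 7 to 66 counts for the rarest, miR-106a-3p. Levels are CPM scaled by edgeR's TMM factors. Log2 changes are given ± SE from edgeR's quasi-likelihood test with Benjamini-Hochberg adjustment over the 813 miRNAs, and an arm was called at an adjusted p below 0.05. Scaling mattered for the background: at day 4 against day 0, 199 miRNAs were called higher and 119 lower in PGK cells (154 and 166 when scaled to library totals), and 204 and 149 in E14 cells (159 and 186 with RLE scaling). At days 27 to 30 in E14 cells the split was 159 higher and 172 lower (233 and 105 with library totals). RLE scaling moved the median change of all miRNAs at day 4 by -0.17 in PGK cells and -0.24 in E14 cells, and library totals moved it by at most 0.70 at any stage. Bulk RNA cannot tell fewer cells that express a miRNA from less of it per cell.

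The cluster made up a small part of all miRNA counts, and its share was highest at day 4. In PGK cells the 8 arms summed to 0.121% and 0.113% of the counts at day 0, 0.532% and 0.543% at day 4, 0.371% and 0.287% at day 10, 0.270% and 0.430% at days 23 and 21, and 0.405% and 0.371% at day 29. In E14 cells they summed to 0.465% and 0.493% at day 0, 0.925% and 0.929% at day 4, 0.266% and 0.616% at day 10, 0.464% and 0.553% at days 21 and 19, and 0.531% and 0.698% at days 27 and 30. Thus the PGK libraries started low and stayed above their day 0 share at all later stages, whereas the later E14 libraries lay on both sides of theirs apart from the day 4 peak. In TMM-scaled CPM the E14 sums after day 4 were instead all lower than at day 0, at 3411 to 5197 against 5735 and 5550 CPM. The E14 course after day 4 thus depends on the scaling.

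miR-363-3p held most of these counts in every library, between 65.2% and 74.7% of the cluster (median 70.0% over 20 libraries). miR-18b-5p (median 9.70%), miR-20b-5p (9.42%) and miR-106a-5p (7.52%) followed, and miR-363-5p, miR-20b-3p, miR-18b-3p and miR-106a-3p had medians of 2.17%, 1.06%, 0.750% and 0.0525%. The bias towards the more abundant arm was strongest for miR-106a, with a median count ratio of 147 for 5p over 3p (range 70.8 to 264). It was weaker for miR-363 (31.1 for 3p over 5p, 24.9 to 74.3), miR-18b (12.2 for 5p over 3p, 8.22 to 39.5) and miR-20b (9.58 for 5p over 3p, 6.15 to 14.01). Such ratios compare molecules of different sequence, whose capture in small RNA libraries differs, so they describe the libraries and not the molar ratio in cells.

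**Figure D1:**
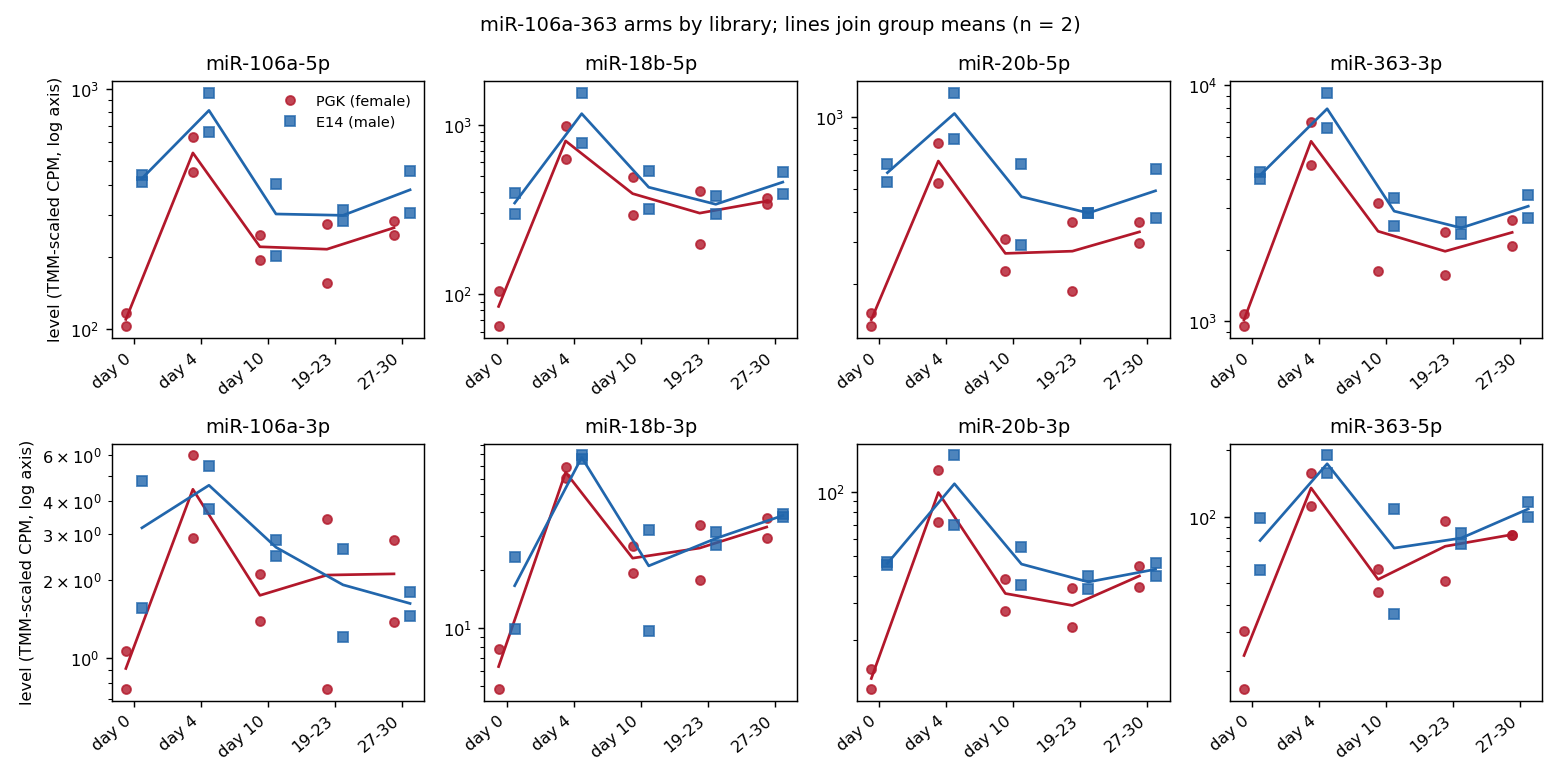
Level of each of the 8 arms (TMM-scaled CPM, log axis) in every library by stage, with PGK libraries as circles and E14 libraries as squares, and lines through the means of the 2 libraries. Both day 4 libraries were the highest of their line for 7 of the 8 arms. How many of all tested miRNAs were highest at day 4 was not counted. The PGK day 0 libraries lay below the E14 day 0 libraries for all 8 arms and for 16.7% of all tested miRNAs.

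In the female PGK line every arm rose within 4 days of leaving 2i. The most abundant, miR-363-3p, which carries the miR-25/92 seed, had 1072 and 947 CPM at day 0, 6976 and 4567 CPM at day 4, 3164 and 1631 CPM at day 10, 1570.4 and 2374 CPM at days 23 and 21, and 2675 and 2068 CPM at day 29. The day 4 libraries stood apart from all others, and every later library lay above both day 0 libraries. The change at day 4 against day 0 was 2.52 ± 0.38 on the log2 scale (adjusted p = 0.000148).

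miR-18b-5p, the miR-18 family guide of the cluster, had 105 and 64.4 CPM at day 0, 978 and 624 CPM at day 4, 489 and 293 CPM at day 10, 197 and 404 CPM at days 23 and 21, and 367 and 341 CPM at day 29. Among the guide arms it had the highest log2 change at day 4, 3.25 ± 0.51 (adjusted p = 0.000176). Its day 0 and later libraries did not overlap.

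The arms with the miR-17 seed were also highest at day 4, at a lower level than miR-363-3p. miR-106a-5p had 103 and 117 CPM at day 0, 631 and 452 CPM at day 4, 247 and 194 CPM at day 10, 156 and 275 CPM at days 23 and 21, and 283 and 246 CPM at day 29. miR-20b-5p had 133 and 150.4 CPM at day 0, 777 and 529.7 CPM at day 4, 309.5 and 227 CPM at day 10, 187 and 361 CPM at days 23 and 21, and 363 and 297 CPM at day 29. Their log2 changes at day 4 were 2.30 ± 0.42 (adjusted p = 0.000546) and 2.21 ± 0.46 (adjusted p = 0.00148), and both arms were lowest in the 2 day 0 libraries.

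The passenger arms, which report on the same hairpins, moved with the guides. miR-18b-3p had 60.6 and 68.8 CPM at day 4, against 4.84 and 7.83 CPM at day 0, a change of 3.35 ± 0.58 (adjusted p = 0.00039). miR-20b-3p had 126 and 71.9 CPM at day 4, against 11.8 and 14.7 CPM at day 0 (2.90 ± 0.45, adjusted p = 0.000174), and miR-363-5p had 111 and 158 CPM, against 16.6 and 30.6 CPM (2.51 ± 0.52, adjusted p = 0.00148). miR-106a-3p was near the limit of counting, with 2.89 and 5.98 CPM at day 4 against 1.06 and 0.761 CPM at day 0, and its change of 2.26 ± 0.76 had an adjusted p of 0.0276. That call did not survive the loss of day 0 replicate 2, day 0 replicate 3 or day 4 replicate 3 (adjusted p = 0.103, 0.21 and 0.187).

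Thus 8 of 8 arms were called higher at PGK day 4 against day 0, with changes of 2.21 to 3.35 and a median of 2.51, in a comparison in which 24.5% of all tested miRNAs were called higher and the median over all of them was 0.03. The 2 day 4 libraries lay above the 2 day 0 libraries for all 8 arms, and for 35.4% of all tested miRNAs. At day 10 the arms called higher than at day 0 were miR-18b-5p (2.21 ± 0.49, adjusted p = 0.00223), miR-18b-3p (1.87 ± 0.55, 0.0148), miR-20b-3p (1.33 ± 0.43, 0.0243) and miR-363-3p (1.25 ± 0.37, 0.0143), 4 of 8 against 21.3% called higher of all tested. The remaining 4 had changes of 0.92 to 1.14, and miR-363-5p (1.14 ± 0.50, adjusted p = 0.0822) was called with the replicate as a block (1.19, adjusted p = 0.023). Leaving out day 0 replicate 2, day 0 replicate 3 or day 10 replicate 2 left 2, 1 and 2 calls.

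At days 19 to 23 the PGK changes from day 0 lay between 0.95 and 2.05, and 5 arms were called (21.2% of all tested were called higher), both miR-18b arms, miR-20b-3p, miR-363-3p and miR-363-5p. This count was the least stable of the female ones, with 1 call left without day 0 replicate 2, 2 without day 0 replicate 3 and 0 without the day 21 library of replicate 3. With the replicate as a block within each line miR-20b-3p was not called (adjusted p = 0.0524). At day 29 the changes lay between 1.20 and 2.41, and 7 arms were called (24.1% of all tested were called higher), all but miR-106a-3p. The 5 arms called at days 19 to 23 were among them, with miR-18b-3p at 2.41 ± 0.56 (adjusted p = 0.00286), miR-18b-5p at 2.07 ± 0.49 (0.00298) and miR-363-3p at 1.23 ± 0.37 (0.0133), joined by miR-106a-5p at 1.27 ± 0.41 (0.0198) and miR-20b-5p at 1.22 ± 0.44 (0.037). It was 4 without day 0 replicate 2, day 0 replicate 3 or day 29 replicate 2.

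**Figure D2:**
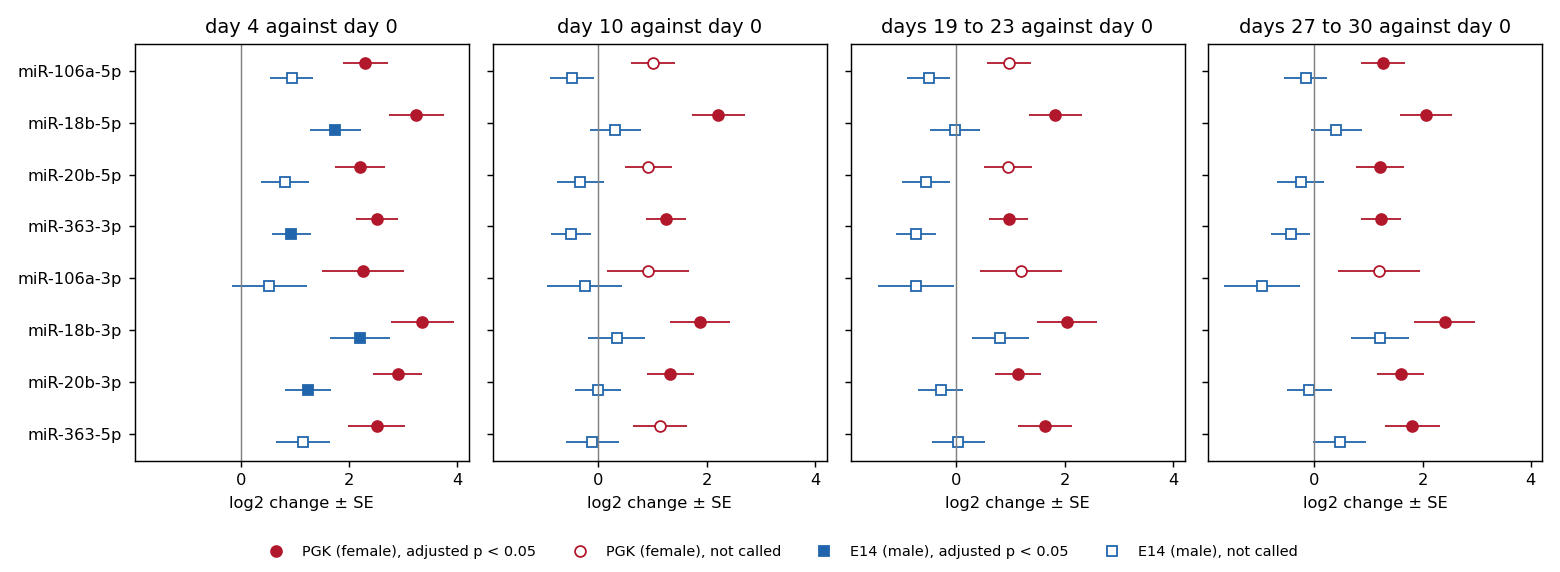
Log2 change of each arm at each later stage against day 0 (± SE), with PGK as red circles and E14 as blue squares, filled where the adjusted p was below 0.05. The PGK changes were all above 0 at all stages, with 8, 4, 5 and 7 called, and in E14 cells 4 were called at day 4 and 0 afterwards.

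In the male E14 line the cluster started at a higher level, and fewer arms passed the test at day 4. miR-363-3p had 4283 and 4009 CPM at day 0, 9272 and 6581 CPM at day 4, 2515 and 3321 CPM at day 10, 2326 and 2630.1 CPM at days 21 and 19, and 2716 and 3408 CPM at days 27 and 30. In TMM-scaled CPM both day 4 libraries were above, and all 6 libraries after day 4 below, both day 0 libraries. The order after day 4 depends on the scaling, as shares of the library total lay on both sides of day 0. miR-363-3p had 35362 of 18031067 counts at day 10 (replicate 2) and 45711 of 9985494 at day 30. At day 0 it had 46888 of 13512308 and 55611 of 15601220. The change at day 4 was 0.93 ± 0.36 (adjusted p = 0.0496), just inside the threshold. The call was lost with RLE scaling, no filter, the filter at 10 CPM, DESeq2 and each line alone (adjusted p = 0.0784 to 0.184), and without any of the 4 libraries compared (0.15 to 0.433).

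miR-18b-5p had 393 and 295 CPM at day 0, 1542 and 778 CPM at day 4, 319 and 535 CPM at day 10, 297 and 380.1 CPM at days 21 and 19, and 387 and 528 CPM at days 27 and 30. Here too the day 4 libraries were the highest, and the later ones overlapped with day 0. The other E14 calls at day 4 besides miR-363-3p were miR-18b-5p (1.75 ± 0.48, adjusted p = 0.00901), miR-18b-3p (79.1 and 75.4 CPM, against 9.96 and 23.4 CPM at day 0, 2.21 ± 0.55, adjusted p = 0.00531) and miR-20b-3p (148 and 69.8 CPM, against 46.6 and 45.4 CPM, 1.24 ± 0.43, adjusted p = 0.0283).

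The miR-17 seed arms were not called. miR-106a-5p had 411 and 437 CPM at day 0, 964 and 664 CPM at day 4, 201 and 402 CPM at day 10, 283 and 313 CPM at days 21 and 19, and 305 and 456 CPM at days 27 and 30. miR-20b-5p had 531 and 636 CPM at day 0, 1262 and 804 CPM at day 4, 290.1 and 636 CPM at day 10, 394 and 398 CPM at days 21 and 19, and 378 and 603 CPM at days 27 and 30. Both were highest in the day 4 libraries, with changes of 0.94 ± 0.40 (adjusted p = 0.0712) and 0.82 ± 0.44 (adjusted p = 0.144).

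In all, 4 of 8 arms were called higher at E14 day 4 (25.1% of all tested were called higher), with a median change of 1.05 for the 8 and 0.09 for all tested, and both day 4 libraries lay above both day 0 libraries for 7 of 8 arms and for 36.0% of all tested. miR-106a-3p was the exception, at 3.74 and 5.45 CPM at day 4 against 1.55 and 4.76 CPM at day 0. miR-363-5p, at 157 and 189 CPM against 57.6 and 98.3 CPM, had a change of 1.15 ± 0.50 (adjusted p = 0.0734) and was called with the replicate as a block (1.20, adjusted p = 0.0195). The number called fell to 0 without day 0 replicate 2 and to 1 without day 0 replicate 3 or day 4 replicate 2, and was 3 with DESeq2.

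After day 4 no E14 arm was called against day 0 by edgeR at days 10, 19 to 23 or 27 to 30 (33.7%, 34.3% and 40.7% of all tested were called in either direction), nor by DESeq2. At an unadjusted p below 0.05 the numbers were 0, 0 and 1. The median changes of the 8 arms were -0.18, -0.40 and -0.12. miR-18b-3p had the highest change at days 27 to 30 (39.1 and 38.0 CPM, against 9.96 and 23.4 CPM at day 0, 1.21 ± 0.54, adjusted p = 0.0837), and was called with the replicate as a block (1.33, adjusted p = 0.0234) and with scaling to library totals alone (1.84, adjusted p = 0.0409). At the same stage miR-363-3p had a change of -0.44 ± 0.36 (adjusted p = 0.36) with TMM scaling. The TMM factors were 1.34 in both libraries of that stage, against 0.810 and 0.889 at day 0.

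Between day 4 and day 10 the values of all 8 arms were lower in both lines, with changes of -1.03 to -1.58 in PGK cells and -0.78 to -1.87 in E14 cells, but few passed the test. The 716 tested miRNAs not counted as X-linked had median changes of -0.22 in PGK cells and -0.23 in E14 cells. In PGK cells miR-20b-3p was called lower, at 39.0 and 27.5 CPM at day 10 against 126 and 71.9 CPM at day 4 (-1.58 ± 0.43, adjusted p = 0.0367), 1 arm of 8 against 6.03% of all tested called lower. That call was lost with RLE scaling, library totals, no filter, the filter at 10 CPM and each line alone (adjusted p = 0.0643 to 0.172). With the replicate as a block 4 arms were called, the others being miR-363-3p (-1.27, adjusted p = 0.0337), miR-363-5p (-1.36, 0.0405) and miR-18b-3p (-1.51, 0.0437). With the block within each line 2 were called. Without day 4 replicate 2, day 10 replicate 2 or day 10 replicate 3 there were 0, and without day 4 replicate 3 there were 2.

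In E14 cells 3 arms were called lower at day 10 than at day 4, against 3.57% of all tested. miR-363-3p had 2515 and 3321 CPM, against 9272 and 6581 CPM (-1.44 ± 0.37, adjusted p = 0.0311), miR-106a-5p had 201 and 402 CPM, against 964 and 664 CPM (-1.43 ± 0.41, adjusted p = 0.0438), and miR-18b-3p had 9.67 and 32.6 CPM, against 79.1 and 75.4 CPM (-1.87 ± 0.54, adjusted p = 0.0473). With the replicate as a block miR-363-5p was called as well (-1.38, adjusted p = 0.0317). No call remained without day 4 replicate 2, day 4 replicate 3 or day 10 replicate 2, and none with RLE scaling or scaling to library totals. From day 10 to days 19 to 23 and from there to days 27 to 30, edgeR and DESeq2 called 0 arms in either line, 0 arms had an unadjusted p below 0.05, and of all tested miRNAs 0.369% (PGK) and 0.246% (E14) were called in the first of these steps and 0% in the second. The changes lay between -0.49 and 0.50.

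The changes from day 0 were set against each other in the interaction of line and stage. For every arm and stage the estimate of the PGK change exceeded that of the E14 change. The excess ranged over the 8 arms from 1.14 to 1.73 at day 4 and from 1.17 to 1.90 at day 10. At days 19 to 23 it ranged from 1.23 to 1.94, and at days 27 to 30 from 1.20 to 2.16. Over the 716 tested miRNAs not counted as X-linked the median excess was positive too, at 0.27, 0.27, 0.32 and 0.34. Over 88 X-linked ones outside the cluster it was negative, at -1.68, -2.10, -1.42 and -1.80. No arm passed the test at any stage with edgeR or DESeq2, where edgeR called 0%, 0%, 0% and 0.369% of all tested miRNAs. At an unadjusted p below 0.05 there were 5, 4, 6 and 5 of 8 arms, and 14.5%, 12.1%, 11.6% and 13.9% of all tested miRNAs. For miR-363-3p the differences between the changes were 1.58 ± 0.51, 1.75 ± 0.51, 1.71 ± 0.51 and 1.67 ± 0.51 (adjusted p = 0.237, 0.157, 0.185 and 0.176). All of these share the day 0 libraries, so the 4 stages are not separate evidence.

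The difference between the lines passed the test at day 0. In naive cells miR-363-3p had 1072 and 947 CPM in PGK cells, against 4283 and 4009 CPM in E14 cells (-2.04 ± 0.38, adjusted p = 0.00192). miR-20b-5p had 133 and 150.4 CPM, against 531 and 636 CPM (-2.04 ± 0.45, adjusted p = 0.00734), miR-18b-5p had 105 and 64.4 CPM, against 393 and 295 CPM (-2.03 ± 0.48, adjusted p = 0.0122), and miR-106a-5p had 103 and 117 CPM, against 411 and 437 CPM (-1.95 ± 0.41, adjusted p = 0.00526). All PGK libraries lay below all E14 libraries at day 0 for all 8 arms, and for 16.7% of all tested miRNAs. miR-20b-3p (-1.80 ± 0.44, adjusted p = 0.0134) and miR-363-5p (-1.72 ± 0.51, adjusted p = 0.0452) were also called, and miR-106a-3p (-1.78 ± 0.75, adjusted p = 0.194) and miR-18b-3p (-1.40 ± 0.55, adjusted p = 0.15) were not. That made 6 of 8 arms lower in PGK cells, where 2.09% of all tested miRNAs were called lower. Without PGK day 0 replicate 2 there were 3 calls, and with any other day 0 library left out 5 to 7.

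At later stages the estimates were nearer 0. The median difference over the 8 arms was -1.87 at day 0 and -0.41 at day 4. It was -0.46 at day 10, -0.25 at days 19 to 23 and -0.37 at days 27 to 30. From day 4 on edgeR and DESeq2 called 0 arms, 0 had an unadjusted p below 0.05, and 5.04% of all tested miRNAs were called at day 4 and 0% at the 3 stages after it. Averaged over the 5 stages, miR-20b-5p (-0.92 ± 0.20, adjusted p = 0.00787), miR-106a-5p (-0.80 ± 0.18, 0.00984), miR-363-3p (-0.70 ± 0.16, 0.0107), miR-18b-5p (-0.65 ± 0.21, 0.044) and miR-20b-3p (-0.57 ± 0.19, 0.0465) were called lower in PGK cells, 5 of 8 against 4.55% of all tested. With the replicate as a block miR-363-5p was called too (-0.61, adjusted p = 0.0214), and with the block within each line miR-20b-3p was not (adjusted p = 0.0544). Without PGK day 4 replicate 3 or either E14 library of days 27 to 30 there were 3 calls.

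The direction at day 0 was not that of other X-linked miRNAs. Of 88 tested X-linked miRNAs outside the 6 hairpins, 38 were called higher and 0 lower in PGK cells at day 0, with a median difference of 1.77, and 716 others had a median of -0.08, with 16 called higher and 11 lower. The miR-322 cluster, whose miR-322 and miR-503 arms are known as brakes on the cell cycle, is among these. miR-322-5p had 1014 and 969.6 CPM in PGK cells, against 144 and 233 CPM in E14 cells at day 0 (2.40 ± 0.40, adjusted p = 0.000986), and the most abundant arm, miR-351-5p, was higher by 3.24 ± 0.49 (adjusted p = 0.00055). The median difference at day 0 was -1.87 over the 8 miR-106a-363 arms, and 2.00 over the 12 tested arms of the miR-322 cluster, of which 6 were called higher and 0 lower.

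In PGK cells 0 of 12 miR-322 cluster arms were called at day 4 against day 0 (2 at an unadjusted p below 0.05), and 0 rose and 1 fell by day 29. The one that fell was miR-503-5p (4.03 and 3.01 CPM, against 14.2 and 20.2 CPM at day 0, -2.29 ± 0.69, adjusted p = 0.0142), and miR-351-3p had the highest change there (0.96 ± 0.78, adjusted p = 0.338). In E14 cells 9 rose at day 4 and 10 by days 27 to 30, with medians of 1.99 and 1.95, from miR-542-5p at 0.37 ± 0.46 (adjusted p = 0.55) to miR-351-3p at 3.56 ± 0.88 (adjusted p = 0.00578). At PGK day 4, when all 8 arms of the miR-106a-363 cluster were called higher, the 88 other X-linked miRNAs had a median change of -1.27, with 6 called higher and 25 lower. Elsewhere their median had the sign of the cluster's changes. At E14 day 4 it was 0.27, with 26 called higher and 6 lower. From day 4 to day 10 it was -0.99 in PGK cells, with 31 called lower, and -0.64 in E14 cells, with 5 called lower. None of the 88 was called higher in that step.

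**Figure D3:**
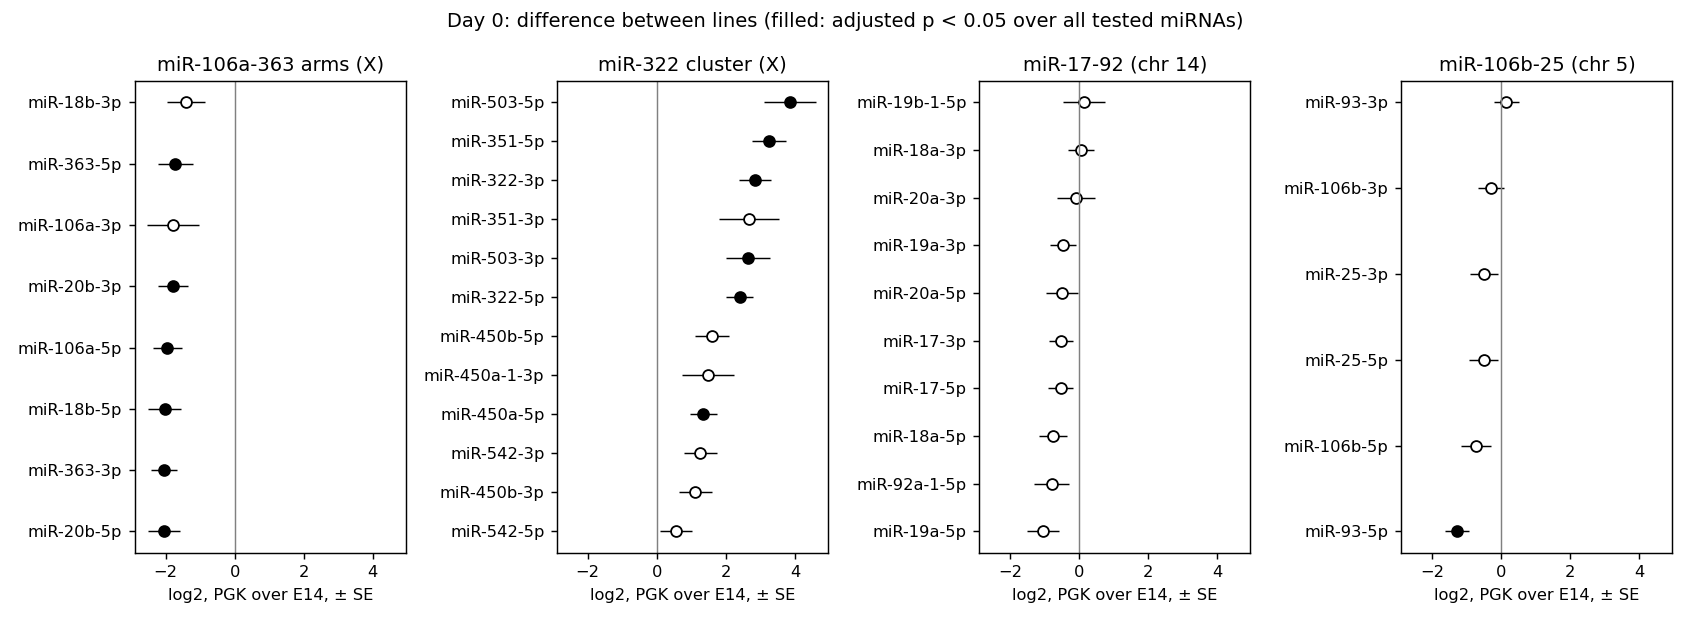
Log2 difference at day 0, PGK over E14 (± SE), for the 8 cluster arms, 12 arms of the miR-322 cluster, 10 arms of miR-17-92 and 6 of miR-106b-25, filled where the adjusted p was below 0.05. All miR-106a-363 arms lie below 0 and all miR-322 cluster arms above it, while the median of the miR-17-92 arms is -0.51.

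The other hairpins of the cluster gave further arms. miR-19b-2-5p, the passenger of a hairpin whose guide is shared with miR-17-92, had 20.7 and 9.47 CPM at PGK day 4, against 2.51 and 2.17 CPM at day 0 (2.68 ± 0.57, adjusted p = 0.00181). miR-92a-2-5p had 30.6 and 8.91 CPM, against 1.26 and 0.761 CPM (4.27 ± 0.87, adjusted p = 0.00138). At day 29 both were still called higher than at day 0, by 1.59 ± 0.56 (adjusted p = 0.0313) and 2.64 ± 0.84 (adjusted p = 0.0187). In E14 cells neither was called at day 4, with 0.95 ± 0.52 (adjusted p = 0.157) and 1.87 ± 0.76 (adjusted p = 0.0591). At day 0 the PGK over E14 difference was -2.09 ± 0.56 (adjusted p = 0.0264) for miR-19b-2-5p and -2.18 ± 0.83 (adjusted p = 0.139) for miR-92a-2-5p. These arms, which were no members, thus had the same signs as the 8. At PGK day 0 miR-92a-2-5p was near the limit of counting, and its day 4 libraries lay far apart, so the size of its change is uncertain. Neither arm was followed across the other settings.

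The guides made from both loci were measured as well. miR-92a-3p, a miR-25/92 family guide, rose at day 4 by 1.63 ± 0.36 in PGK cells (adjusted p = 0.00248) and 1.42 ± 0.36 in E14 cells (adjusted p = 0.00581), and its late changes were 0.53 ± 0.35 and 0.31 ± 0.35 (adjusted p = 0.244 and 0.516). miR-19b-3p rose at PGK day 4 (0.90 ± 0.30, adjusted p = 0.0263) and had a change of 0.22 ± 0.30 at E14 day 4 (adjusted p = 0.561). At day 0 neither was called between the lines (-0.27 ± 0.35 and -0.90 ± 0.30, adjusted p = 0.771 and 0.0749).

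The weight of the cluster within its seed families also peaked at day 4 in the miR-17 family. That family, with the seed AAAGUGC, held miR-106a-5p and miR-20b-5p of the cluster beside miR-17-5p, miR-20a-5p, miR-93-5p and miR-106b-5p. In PGK cells the cluster gave 2.49 ± 0.81% of the family's counts at day 0, 17.9 ± 3.3% at day 4, 8.30 ± 2.5% at day 10, 7.95 ± 3.1% at days 23 and 21 and 10.2 ± 1.0% at day 29 (SD, n = 2 each). In E14 cells it gave 4.14 ± 0.065%, 18.1 ± 1.4%, 9.37 ± 4.4%, 9.51 ± 0.53% and 11.1 ± 1.5% at the same stages. The denominator moved as well, since miR-93-5p of miR-106b-25 was at 2986 ± 426 CPM at PGK day 4 against 8026 ± 3534 CPM at day 0, and at 4442 ± 1380 CPM at E14 day 4 against 19439 ± 2698 CPM at day 0.

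In the miR-18 family (seed AAGGUGC), which is shared only with miR-18a-5p among the measured arms, miR-18b-5p gave 29.4 ± 10.1% of the counts at PGK day 0, 63.7 ± 12.3% at day 4, 45.1 ± 16.5%, 35.5 ± 9.6% and 40.8 ± 0.47% at the stages after it. In E14 cells its share was 50.2 ± 0.37%, 62.2 ± 15.7%, 48.4 ± 6.4%, 39.0 ± 3.0% and 44.3 ± 3.4%. In the miR-25/92 family (seed AUUGCAC), with miR-25-3p, miR-32-5p, miR-367-3p, miR-92a-3p and miR-92b-3p, miR-363-3p stayed a minor part. It gave 1.39 ± 0.47%, 2.87 ± 0.37%, 2.36 ± 0.80%, 2.25 ± 0.35% and 2.37 ± 0.33% in PGK cells and 4.21 ± 0.33%, 3.76 ± 0.80%, 2.87 ± 0.72%, 2.96 ± 0.086% and 2.82 ± 0.38% in E14 cells, so its share at day 0 was the lowest of the PGK stages and the highest of the E14 stages.

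**Figure D4:**
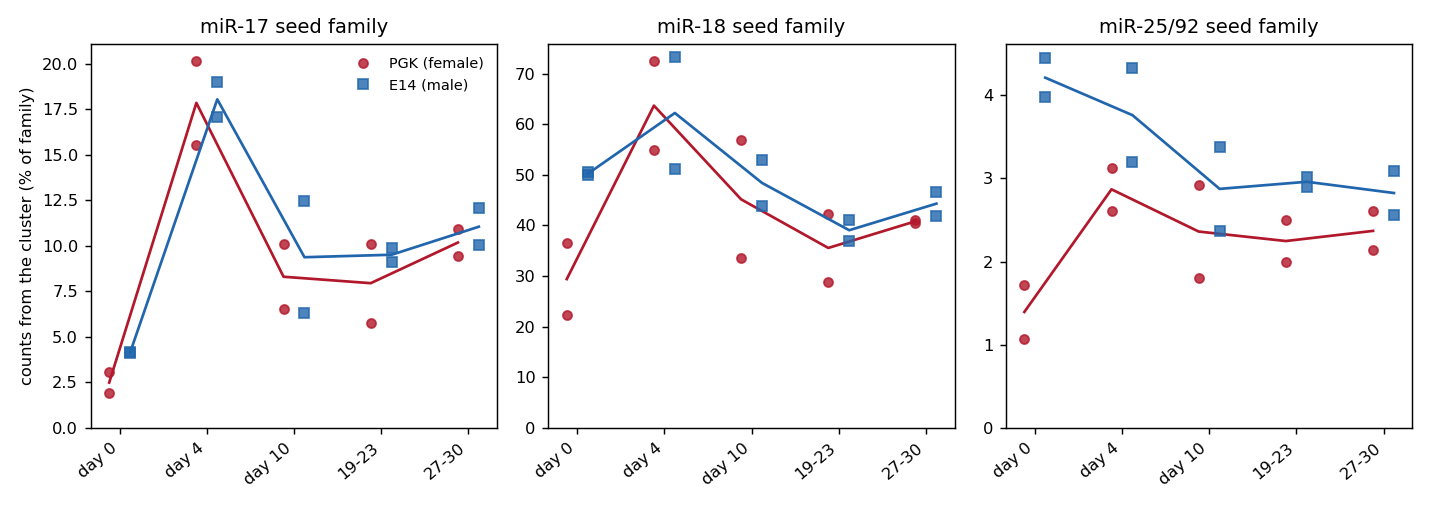
Percent of each seed family's counts that came from the cluster, per library (PGK circles, E14 squares; lines join the means of 2 libraries). In the miR-17 family the share rises to 17.9% and 18.1% at day 4, and in the miR-25/92 family it stays below 5% throughout.

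Within a library, the count ratio of an arm to its paired relative does not depend on scaling. The log2 ratio of miR-363-3p to miR-25-3p was -2.34 to -1.10 in the 8 later PGK libraries and -4.03 and -3.38 in the 2 of day 0, without overlap. The mean difference of 1.91 (exact permutation test, two-sided, p = 0.0222, the smallest that 45 arrangements allow) had an adjusted p of 0.081 over the 12 ratio comparisons made. For miR-106a-5p to miR-17-5p, miR-18b-5p to miR-18a-5p and miR-20b-5p to miR-20a-5p the later minus day 0 differences in PGK cells were 0.80, 1.08 and 0.78 (exact permutation p = 0.178, 0.156 and 0.244). In E14 cells the 4 differences were -0.34, -0.09, -0.46 and 0.70, in the order miR-106a-5p, miR-18b-5p, miR-20b-5p and miR-363-3p (exact permutation p = 0.222, 0.889, 0.289 and 0.156).

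Between the lines, with stages kept apart, the PGK minus E14 differences of the log2 ratios were -0.55 for miR-106a-5p to miR-17-5p, -0.38 for miR-18b-5p to miR-18a-5p, -0.58 for miR-20b-5p to miR-20a-5p and -0.52 for miR-363-3p to miR-25-3p. Their exact permutation p-values were 0.0072, 0.171, 0.027 and 0.0211 (7776 arrangements, smallest possible 0.000257). No ratio passed the adjustment over 12, with adjusted p-values of 0.081, 0.267, 0.081 and 0.081. These tests take the libraries of a line or stage as exchangeable, although libraries of 1 experiment belong to the same differentiation.

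**Figure D5:**
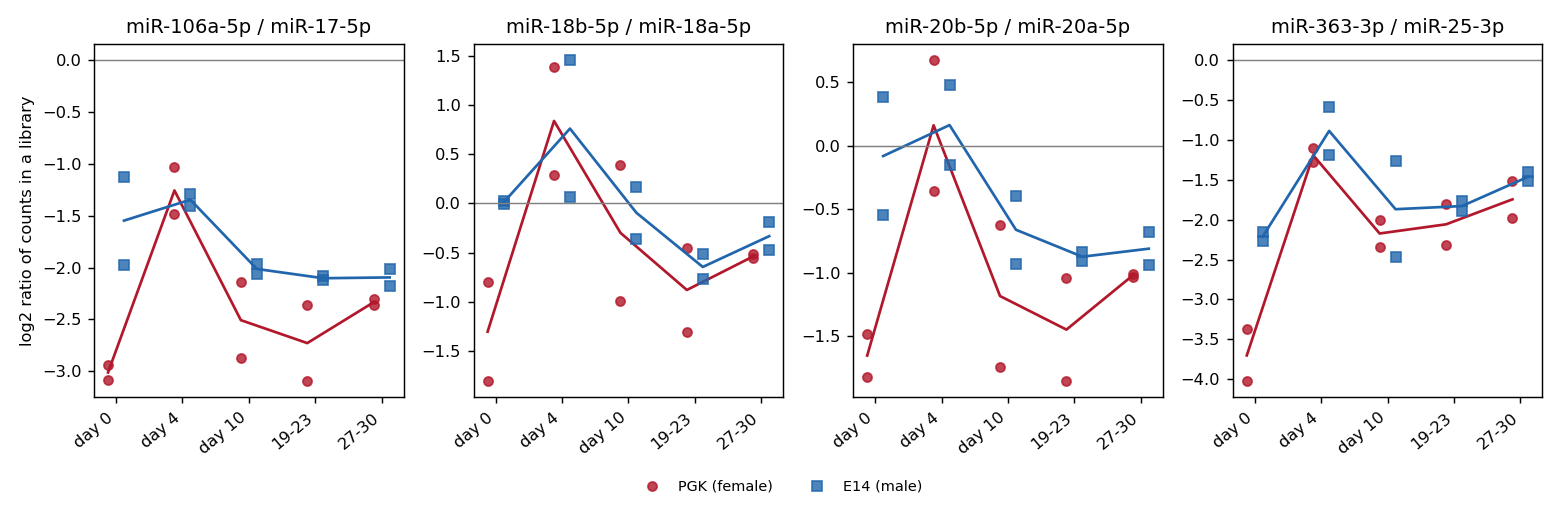
Log2 ratio of the counts of each guide arm to those of its paired arm in another cluster, per library (PGK circles, E14 squares; lines join means). The ratio of miR-363-3p to miR-25-3p is lowest in the 2 PGK day 0 libraries, at -4.03 and -3.38.

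The paralogous clusters were set beside it. At day 4 the miR-106a-363 arms had median changes of 2.51 in PGK cells and 1.05 in E14 cells. The 10 tested arms made from miR-17-92 alone had medians of 1.18 in PGK cells and 1.09 in E14 cells, with 5 called higher and 0 lower in each line. That these differ between the clusters was not tested. The most abundant by its mean over all libraries, the passenger miR-92a-1-5p, rose at day 4 by 2.27 ± 0.53 in PGK cells (adjusted p = 0.00354) and 1.61 ± 0.52 in E14 cells (adjusted p = 0.0203). Late changes in PGK cells ran from 0.43 ± 0.55 for miR-20a-3p (adjusted p = 0.551) to 2.24 ± 0.47 for miR-19a-5p (adjusted p = 0.0014). In E14 cells they ran from -0.02 ± 0.35 for miR-17-3p (adjusted p = 0.978) to 1.48 ± 0.38 for miR-18a-3p (adjusted p = 0.0077). Of the relatives paired above, miR-17-5p had day 4 changes of 0.53 ± 0.37 in PGK cells and 0.68 ± 0.37 in E14 cells (adjusted p = 0.273 and 0.153) and miR-20a-5p of 0.37 ± 0.46 and 0.51 ± 0.46 (0.557 and 0.384), while miR-18a-5p rose in PGK cells (1.12 ± 0.40, adjusted p = 0.0375). At day 0 edgeR called 0 of the 10 arms between the lines, and 1 had an unadjusted p below 0.05.

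Of the 6 arms of miR-106b-25, which lies in an intron of the replication gene Mcm7, 1 rose and 1 fell at PGK day 4, and 0 rose and 2 fell at E14 day 4. By days 27 to 30 2 had fallen in PGK cells and 3 in E14 cells, with medians of -0.76 and -1.13. miR-93-5p fell by 1.68 ± 0.35 (adjusted p = 0.00125) in PGK cells and by 2.48 ± 0.36 (adjusted p = 9.88e-05) in E14 cells. miR-25-3p had late changes of -0.79 ± 0.41 in PGK cells (adjusted p = 0.128) and -1.20 ± 0.41 in E14 cells (adjusted p = 0.0305). At day 0 miR-93-5p was lower in PGK cells as well (-1.28 ± 0.34, adjusted p = 0.027).

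Over the 10 group means the 8 arms resembled one another, with Pearson's r between log2 levels of 0.758 to 0.992 over 28 pairs (median 0.935), and of at least 0.801 without the rare miR-106a-3p. Among 416 miRNAs of at least 50 CPM in a group, those whose log2 group means were most like the summed cluster were miR-126-3p (r = 0.974), miR-195a-5p (0.929), miR-497-5p (0.922), miR-126-5p (0.921) and miR-17-3p (0.875). miR-126-3p had 40.6 ± 10.7 CPM at PGK day 0, 150.4 ± 14.8 at day 4, 76.7 ± 5.1 at day 10, 67.4 ± 3.0 at days 23 and 21 and 69.9 ± 3.7 CPM at day 29. In E14 cells it had 107 ± 11, 155 ± 11, 103 ± 4.6, 91.1 ± 2.7 and 87.2 ± 11.3 CPM. miR-92a-3p ranked at 8 (0.841), miR-17-5p at 10 (0.788) and miR-322-5p at 369 of 416 (-0.486). These correlations describe 10 means that share libraries and scaling.

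Markers of the pluripotent states were as the stage labels say, and markers of other cell types moved with the stages too. The 10 arms of the miR-302 cluster, typical of primed cells and led by miR-302d-3p, summed to 11875 to 30377 CPM in the 8 later PGK libraries and to 168 to 194 CPM in the day 0 ones, and to 9297 to 74023 CPM and 273 to 585 CPM in E14 cells. The 12 arms of the miR-290 cluster, typical of naive cells and led by miR-295-3p, summed to 46516 to 198770.0 CPM in later and 262335 to 340975 CPM in day 0 PGK libraries, and to 82302 to 182445 CPM and 245068 to 317628 CPM in E14 cells. For 5 mesenchymal miRNAs, led by miR-143-3p, the later and day 0 ranges were 592 to 2636 and 3746 to 8817 CPM in PGK cells, and 352 to 3129 and 3254 to 6853 CPM in E14 cells. Its members went different ways. At PGK day 29 against day 0 miR-143-3p and miR-145a-5p were called lower (-1.92 and -1.22). miR-199a-3p, miR-199a-5p and miR-214-3p were called higher there (3.99, 4.52 and 11.1). In E14 cells only miR-214-3p was called at days 27 to 30 (11.07, edgeR adjusted p = 0.00382). For 4 neural ones, led by miR-9-5p, the later and day 0 ranges were 567 to 1705 and 719 to 769 CPM in PGK cells, and 722 to 2562 and 749 to 894 CPM in E14 cells. These members differed as well. At E14 days 27 to 30 against day 0 miR-9-5p and miR-9-3p were called higher (2.06 and 2.04) and miR-124-3p lower (-2.24). At PGK day 29 only miR-9-3p was called (2.15). For 4 muscle ones, led by miR-208b-3p, the later and day 0 ranges were 34.6 to 73.4 and 4.55 to 15.1 CPM in PGK cells, and 36.7 to 119 and 3.65 to 3.68 CPM in E14 cells. For 6 blood and endothelial ones, led by miR-126-3p, they were 85.5 to 386 and 545 to 715 CPM in PGK cells, and 88.4 to 228 and 180 to 281 CPM in E14 cells. For 3 endodermal ones, led by miR-192-5p, they were 498 to 972 and 1157 to 2164 CPM in PGK cells, and 313 to 961 and 1708 to 3623 CPM in E14 cells. Of the defining markers, miR-214-3p (mesenchymal) and miR-206-3p (muscle) had 0 counts in the day 0 libraries of both lines, and miR-122-5p (endodermal) in those of PGK. Of the 5 tested blood and endothelial miRNAs, 1 was called higher and 2 lower at PGK day 4 against day 0, and 2 higher and 1 lower in PGK than in E14 cells at day 0. miR-142-3p and miR-142-5p fell at PGK day 4 (-1.58 ± 0.53 and -1.51 ± 0.39, adjusted p = 0.0269 and 0.00646) and were higher in PGK cells at day 0 (2.31 ± 0.54 and 2.27 ± 0.39, adjusted p = 0.0111 and 0.0013). miR-126-3p, on the same list, is the miRNA most like the cluster in its group means. It rose at PGK day 4 by 1.89 ± 0.31 (adjusted p = 0.000273) and was lower in PGK than in E14 cells at day 0 (-1.40 ± 0.31, adjusted p = 0.00717). The part of these markers in the changes of the cluster was not tested.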

How the data were processed

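Small RNA was sequenced in 20 libraries, and the labels' line and day gave the groups. The authors deposited a count per miRNA and library for each line. CASAVA 1.8.2, DESeq2 (version not given) and the genome builds GRCm38 and mm10 are named in the submitters' processing notes. Which aligner and miRNA annotation were used, and how multiply matching reads were counted, is not given in the sources used here. A normalized signal was also deposited, which equals the authors' counts over 1 size factor per library and served only as an alternative scaling, and the variance-stabilized tables were left out. Sequences and positions came from RefSeq and GENCODE on GRCm38.

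Of 1109 miRNAs in the female table and 1091 in the male table, 1063 were in both and were compared. edgeR 4.0.16 (R 4.3.3, limma 3.58.1) was fitted to the counts of all libraries with a mean per group. TMM factors were 0.551 to 1.43, and the filterByExpr filter left 813 miRNAs with 99.997% of all counts. Quasi-likelihood F tests had 10 residual degrees of freedom (common dispersion 0.171) and Benjamini-Hochberg adjustment within each contrast, and an SE is the log2 change divided by the root of F. Ratios to paralogues were log2 ratios of counts after adding 0.5, compared by two-sided exact permutation tests (scipy 1.17.1). The code was tested on simulated data.

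The members and lists were chosen with earlier results of these data known. Named were the 8 arms, their paralogues, the other arms of the 6 hairpins, in each compared cluster the arm with the highest mean and those with the highest and lowest late change, and the 5 miRNAs most like the summed cluster among those of at least 50 CPM in a group. In marker lists the member with the highest mean was named, with members at 0 counts. For the mesenchymal and the blood and endothelial lists, members called in PGK cells were named too. The replicate number is that of the differentiation experiment in the labels, which pairs samples. As a check, deviations from group means correlated between same-numbered libraries of a stage in both lines at 0.108 to 0.626 (median 0.403, 5 of 5 above 0.1), but within a line at medians of 0.111 (PGK) and 0.0464 (E14). Other settings were scaling by RLE or by library totals, testing without a filter or above a mean of 10 CPM, a replicate block over both lines or within each, DESeq2 1.42.0, and fitting each line alone. Each library was also left out, with scaling and filter recomputed and a lone library taken to vary like the other groups. For ratios the pseudocount was 5 or the denominator all arms of the seed. Each line alone with the authors' size factors and the comparison of the lines at each stage were added after seeing the data.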

Additional observations from a re-analysis of the deposited data

How the results depend on the processing

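Depth limits miR-106a-3p, with 7 to 66 counts per library, and groups of 2 libraries limit all tests. The 8 calls at PGK day 4 were 7 or 8 under every alternative run. Unless a library was left out, the 7 at PGK day 29 were 6 or 7 and the 6 lower arms of PGK cells at day 0 were 5 or 6. Of the counts of arms called, 170 were within 1.5 times of the reported value, 5 were higher and 21 lower, beside 105, 1 and 22 with a library left out. The 170 and 105 include comparisons with a reported count of 0, which were taken as unchanged where the alternative also gave 0. They are therefore no measure of how stable the calls were. Single arms were followed across settings for PGK stages against day 0, E14 day 4 against day 0 and day 10 against day 4. They were also followed for the lines at day 0, averaged over stages and in their changes. Of these log2 changes, none changed sign unless a library was left out, 752 kept their side of the threshold, 54 lost and 21 gained a call. The 752 include the differences in change between the lines, for which no arm was called in any setting. The E14 changes from day 0 at the stages after day 4 were not among the log2 changes followed.

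The PGK count at days 19 to 23 was 3 with RLE scaling, no filter and each line alone, with TMM or with the authors' size factors. The E14 count at day 4 was 2 under these same 4 settings. The E14 count at days 27 to 30 was 1 with library totals and with either replicate block. From day 4 to day 10 the PGK count was 0 with RLE scaling, library totals, no filter, the 10 CPM filter and each line alone under either scaling, 4 with the replicate block and 2 with the block within each line. The E14 count was 0 with RLE scaling, library totals, no filter and each line alone under either scaling, and 1 with the 10 CPM filter. Averaged over stages, 3 arms were called with no filter. The block changed no other count by over 1.5 times, and with pairs of libraries the adjusted p of the paralogue ratios between lines was 0.0703 to 0.164.

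Leaving out each library gave 1 to 3 calls at PGK day 10, 0 to 5 at days 19 to 23, 4 to 5 at day 29, 0 to 3 at E14 day 4, 0 to 2 for PGK and 0 to 3 for E14 from day 4 to day 10, 3 to 6 for the lines averaged and 3 to 7 at day 0. The log2 change of miR-106a-3p then ranged from -0.26 to 1.82 at PGK days 19 to 23 (-0.26 without replicate 3 of that stage) and from -0.37 to 1.31 at E14 day 4 (-0.37 without day 0 replicate 2, -0.13 without day 4 replicate 3).

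With all other arms of the seed as denominator, the later minus day 0 ratios in PGK cells were 2.12 for miR-106a-5p, 2.06 for miR-20b-5p and 0.81 for miR-363-3p. All were past the threshold (exact permutation, adjusted p = 0.0444). In E14 cells they were 1.48, 1.44 and -0.43, the opposite sign of the paired ratios. There miR-106a-5p and miR-20b-5p were past the threshold as well (adjusted p = 0.0444), and miR-363-3p was not (0.108). This alternative compares with other arms, miR-93-5p and miR-92a-3p among them. Between the lines the value for miR-363-3p was -0.63 (adjusted p = 0.0154). Leaving out a library, the E14 ratios ranged from -0.77 to 0.082 for miR-106a-5p, -0.31 to 0.011 for miR-18b-5p and -0.93 to 0.0033 for miR-20b-5p, changing sign without day 0 replicate 3, the day 21 library and day 0 replicate 3. Between the lines they ranged from -0.63 to -0.46 for miR-106a-5p, -0.69 to -0.46 for miR-20b-5p and -0.64 to -0.40 for miR-363-3p, past the threshold without PGK day 4 replicate 2 or day 10 replicate 2, PGK day 4 replicate 2, and E14 day 10 replicate 2, in this order. The causes were not tested.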
